A study of Mus musculus with 2 samples.

Results

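The genes described here were the growth factors Fgf7 and Fgf2 and the receptors Fgfr1, Fgfr2 and Fgfr3, chosen by gene symbol. They were 5 of the 28006 features in the tables, and all 5 were found. Their transcripts were counted by single-cell RNA sequencing of femoral cells sorted as Cxcl12-GFP+, with 1 library for each of 2 mice. Both mice carried Cxcl12(GFP/+), in which GFP replaces 1 copy of the chemokine gene Cxcl12, together with Cxcl12-iCreER, a tamoxifen-dependent recombinase placed under Cxcl12 control in a transgene, and R26R(tdTomato/+), a red reporter that the recombinase switches on. The mice were given tamoxifen on postnatal day 21 and analysed on postnatal day 28. They formed 1 group with no untreated or unmarked control, so every comparison below is between classes of cells within these mice. A protocol field of the labels names tdTomato+ cells in place of GFP+ cells for the sort.

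Fibroblast growth factors are secreted ligands that signal through receptor tyrosine kinases, with heparan sulfate on cell-surface proteoglycans acting as a partner in binding. Each of Fgfr1, Fgfr2 and Fgfr3 is spliced into an epithelial b form or a mesenchymal c form of the ligand-binding domain. FGF7, also called keratinocyte growth factor, is a mesenchymal product that acts mainly on the b form of FGFR2, whereas FGF2 is a broadly acting ligand that is kept in the matrix. In bone, FGFR1 and FGFR2 act in osteoblasts and their precursors, and FGFR3 restrains the growth plate. The counts were made at the 3′ end of each transcript, so the b and c forms could not be told apart.

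On the mouse build GRCm38, Fgf7 (ENSMUSG00000027208) lies on chromosome 2 from 126034658 to 126091185, and Fgf2 (ENSMUSG00000037225) on chromosome 3 from 37348346 to 37410108. Fgfr1 (ENSMUSG00000031565) lies on chromosome 8 from 25513654 to 25575718, and Fgfr3 (ENSMUSG00000054252) on chromosome 5 from 33721674 to 33737068, all 4 on the forward strand. Fgfr2 (ENSMUSG00000030849) lies on the reverse strand of chromosome 7. In RefSeq it runs from 130162451 to 130266808, but in GENCODE M21 the gene extends to 133123350 and then overlaps 47 other features of the tables. On the opposite strand, Fam227b spans Fgf7, and Nudt6 and Fgf2os overlap Fgf2. The annotation and the strand rule used for counting are not given in the sources used here, so the values of Fgf7, Fgf2 and Fgfr2 are uncertain to the extent that such reads were shared.

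The libraries held 54940400 UMIs (molecular tags that let each captured transcript be counted once) in Mouse #1 and 88790688 in Mouse #2. A barcode was kept as a cell when it had 1000 genes or more and no more than 15% of its UMIs were mitochondrial, which left 2750 and 4582 cells with medians of 12966.5 and 12190 UMIs, and 7 cell barcodes occurred in both libraries. The cells were clustered without the 5 genes and without the wider FGF lists described below. From marker genes, 1238 and 2425 cells were named reticular-like (clusters 0, 2 and 3), the adipocyte-gene-expressing stroma that surrounds marrow sinusoids. A further 441 and 857 were preosteoblast-like (clusters 1 and 13), 77 and 239 periosteal-like (cluster 6), 150 and 138 endothelial-like (clusters 8 and 15), and 723 and 712 hematopoietic, called blood cells here. The summed level of 8 reticular markers was 17437 and 15027 CPM (UMIs per 1e6 UMIs) in reticular-like cells, 5058 and 3352 in preosteoblast-like cells and 1464 and 1462 in blood cells. Clusters 10 and 11 stayed unnamed and enter no comparison between classes, but they are among the clusters used for the correlations at the end. Cluster 10 had a median of 2992.5 UMIs, and cluster 11 was led by cell cycle genes. The top genes of cluster 13 included the osteocalcin gene Bglap and Ifitm5. The study counts Ifitm5 as a marker of terminally differentiated osteoblasts and names Bglap-positive cells mature osteoblasts. The marker rule placed cluster 13 in the preosteoblast-like class, so the levels of that class include it. It gave 522442 of the 7715878 UMIs of the class in Mouse #1 and 2729116 of the 17160741 in Mouse #2.

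Levels are given in CPM of a class, summed over the cells of 1 mouse, with Mouse #1 before Mouse #2. A CPM value depends on the gene's own 3′ end and was not compared between genes. Fewer cells with a transcript and less transcript per cell cannot be told apart in such sums. Shares of cells are therefore given beside the levels of Fgf7, Fgfr1 and Fgfr2, and of Fgf2 in periosteal-like and reticular-like cells. No share by class is given for Fgfr3, whose class differences are described from the sums alone. Differences between classes were fitted with edgeR on the sums per mouse, with p-values adjusted over all 14271 genes tested. A difference was called at an adjusted p under 0.05. The p-values rest on the spread between 2 mice. For each gene that spread was estimated jointly over all classes, not separately for the pair compared.

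Of the 5 classes, reticular-like cells had the highest Fgf7. Its level was 221 CPM in Mouse #1 and 285 CPM in Mouse #2 (253 ± 45.7, mean ± SD, n = 2), from 3606 and 8645 UMIs. Periosteal-like cells held 117 and 100 CPM, and preosteoblast-like cells 70.6 and 59.1 CPM. Endothelial-like cells held 5.24 and 19.99 CPM and blood cells 12.4 and 13.6 CPM. The reticular-like level lay above that of each of the other 4 classes in both mice, with no overlap. The unnamed, shallow cluster 10, which is in none of these classes, held 223 and 304 CPM from 41 and 121 UMIs, with Poisson intervals (160 to 303 and 252 to 363) that hold the reticular-like values.

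**Figure D1:**
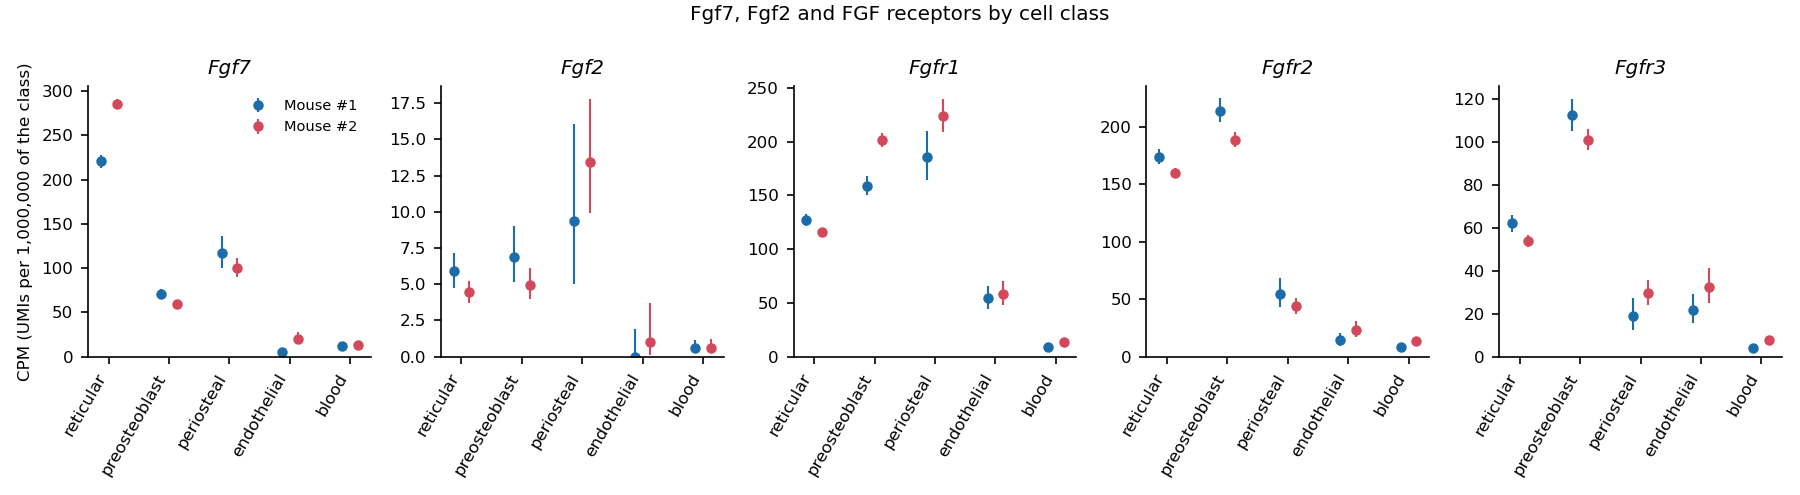
Levels of Fgf7, Fgf2, Fgfr1, Fgfr2 and Fgfr3 in CPM (vertical axes from 0, 1 scale per gene) in 5 classes of cells. Each point is 1 mouse and bars are exact 95% Poisson intervals for counting error. Of these classes, Fgf7 is highest in reticular-like cells (221 and 285), Fgf2 and Fgfr1 in periosteal-like cells, and Fgfr2 and Fgfr3 in preosteoblast-like cells.

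Against preosteoblast-like cells, Fgf7 was higher in reticular-like cells by 1.97 ± 0.27 on the log2 scale (fit ± SE, adjusted p = 0.00083), and the log2 ratio was positive in 2 of 2 mice. Against periosteal-like cells it was higher by 1.18 ± 0.28 (adjusted p = 0.016). Against endothelial-like cells the difference was 4.37 ± 0.36 (adjusted p = 8e-06), and against blood cells 3.85 ± 0.30 (adjusted p = 1.9e-06). The order below reticular-like cells was less sharp. Periosteal-like cells exceeded preosteoblast-like cells by 0.79 ± 0.28 without passing the test (adjusted p = 0.081), and blood and endothelial-like cells differed by 0.52 ± 0.40 (adjusted p = 0.29).

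The share of reticular-like cells with at least 1 Fgf7 UMI was 33.0% and 38.0% after each cell had been thinned to 2000 UMIs, which left out 6 and 21 of all cells. The 95% Wilson intervals were 30.4% to 35.6% and 36.1% to 40.0%. Without thinning the share was 81.2% and 82.4%. Of periosteal-like cells 20.8% (13.2% to 31.1%) and 15.97% (11.9% to 21.2%) held Fgf7 after thinning. The preosteoblast-like share was 12.5% (9.71% to 15.9%) and 12.2% (10.2% to 14.5%), and that of blood cells 1.80% (1.06% to 3.06%) and 1.55% (0.867% to 2.75%). In endothelial-like cells it was 0% (0 of 150 cells, which allows a share of up to 2.0% at this depth) and 1.45%, and without thinning 4.0% and 6.52%. At equal depth the share was thus higher in reticular-like cells than in any other class in both mice. Unthinned reticular-like cells held a median of 2 Fgf7 UMIs in both mice, and 58.6% and 62.1% of them held 2 or more. The top cell held 29 and 45 UMIs, which was 0.804% and 0.521% of the class total, so the level did not rest on a few cells.

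Fgf7 was not uniform within the classes. The reticular-like cluster 2, whose leading genes were heat shock genes such as Hspb1 and Hspa1a, held 287 and 346 CPM. Cluster 0, led by Lsmem1, Rrad and Mt1, held 213 and 267 CPM, and cluster 3, led by Ifit1 and Bmp4, held 196 and 251 CPM. In both mice cluster 2 was highest and cluster 3 lowest of the 3, and no test was run between clusters. The clusters of the preosteoblast-like class lay further apart. Cluster 1, led by Wif1, Slc20a2 and Fat3, held 75.5 and 69.4 CPM. Cluster 13, led by Col11a2 and the osteocalcin gene Bglap, held 3.83 and 4.76 CPM in 14 and 61 cells with a median of 44020 UMIs. Leaving out cluster 13 gave a reticular-like excess over the remaining preosteoblast-like cells of 1.88 ± 0.26 for Fgf7 (adjusted p = 0.00092), an alternative added after the data were seen. The cycling cluster 11 held 25.5 and 33.8 CPM of Fgf7.

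**Figure D2:**
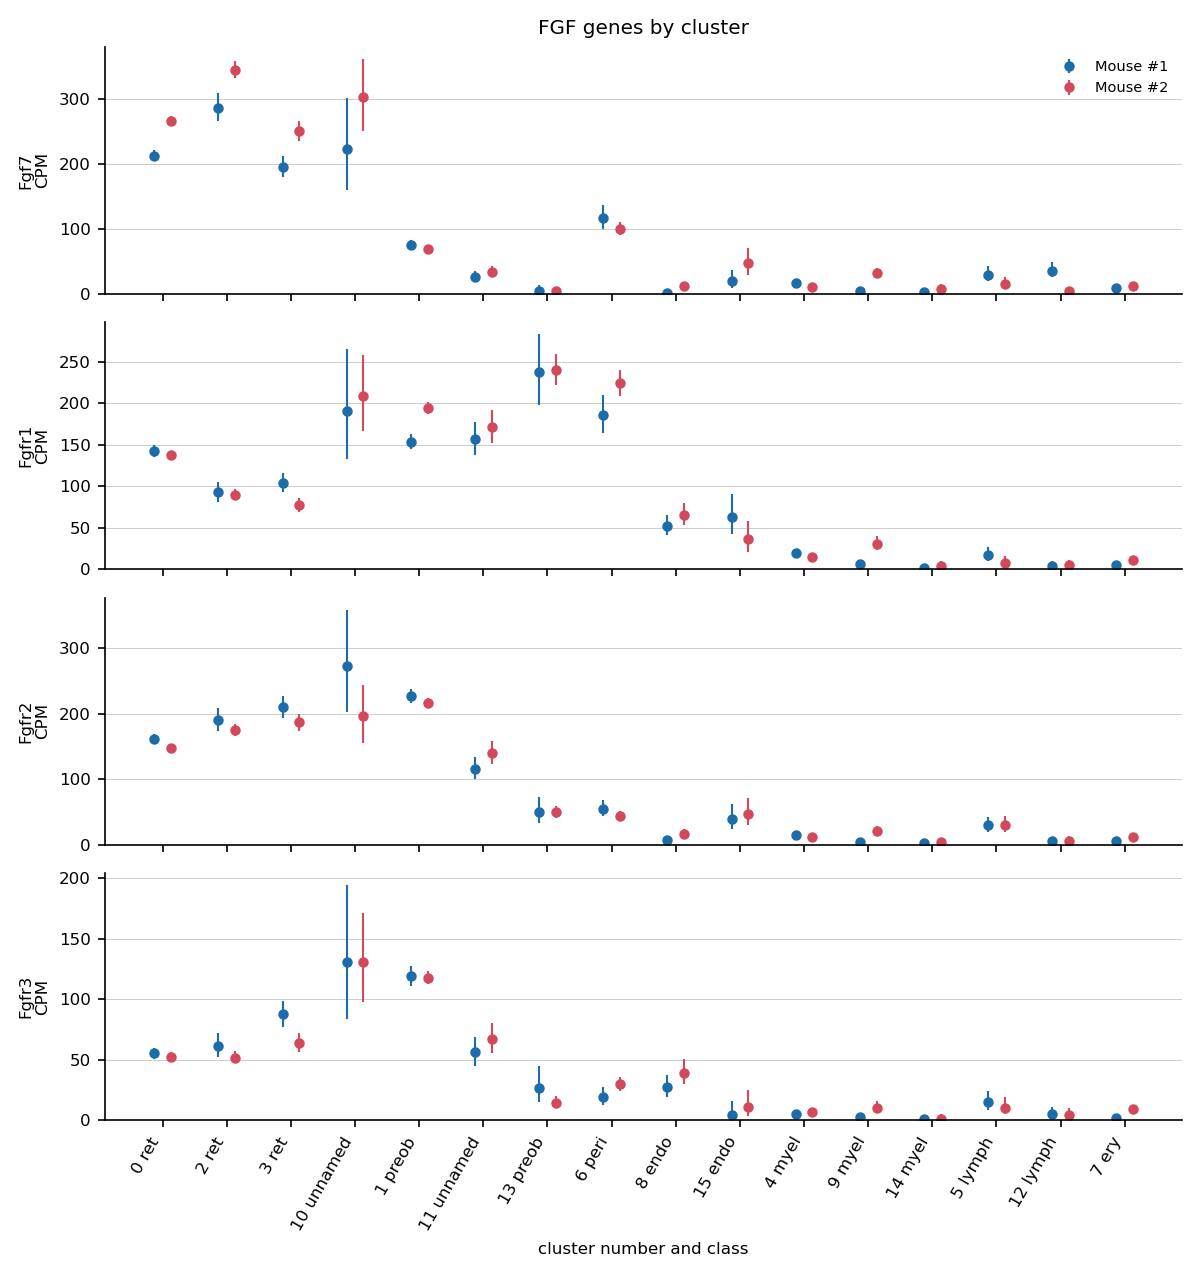
Levels of Fgf7, Fgfr1, Fgfr2 and Fgfr3 in CPM (vertical axes from 0) by cluster, ordered by class, with 1 point per mouse and exact 95% Poisson intervals. Fgf7 falls from the reticular-like clusters 0, 2 and 3 through cluster 1 (75.5 and 69.4) to cluster 13 (3.83 and 4.76), whereas Fgfr1 is highest in cluster 13 among named clusters in both mice.

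Barcodes with 1 to 100 UMIs, which hold mostly free RNA, carried 88.9 and 104 CPM of Fgf7, so some UMIs of the gene were present outside cells. They also carried 101 and 130 CPM of Fgfr1, 136 and 161 CPM of Fgfr2 and 78.2 and 77.8 CPM of Fgfr3, and 4.27 and 3.32 CPM of Fgf2. The Fgfr3 values lay above those of every class but preosteoblast-like cells. The part of free RNA in the Fgf2 and receptor levels of the classes was not tested. The 8 reticular markers stood in blood cells at 8.39% and 9.73% of their reticular-like level, and Fgf7 at 5.60% and 4.76%. In endothelial-like cells the markers stood at 4.49% and 8.81%, and Fgf7 at 2.37% and 7.003%. In both classes and both mice the Fgf7 ratio was below that of the markers. The part of free RNA in these low Fgf7 levels was not tested. When the cells with the highest Scrublet doublet scores were left out, the mean Fgf7 level of blood cells went from 12.97 to 7.53 CPM.

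Fgf2 was sparse in every class. Periosteal-like cells held 9.38 and 13.4 CPM, from 13 and 48 UMIs. The level was 6.87 and 4.95 CPM in preosteoblast-like cells and, in reticular-like cells, 5.88 and 4.42 CPM. Blood cells held 0.585 and 0.610 CPM, and endothelial-like cells 0 and 2 UMIs in all. Periosteal-like cells were the highest class in both mice. They exceeded reticular-like cells by 1.26 on the log2 scale (log2 difference of reticular-like against periosteal-like -1.26 ± 0.35, adjusted p = 0.031), and they exceeded preosteoblast-like cells by 1.07 ± 0.35 without passing the test (adjusted p = 0.063). Reticular-like and preosteoblast-like cells differed by -0.19 ± 0.31 (adjusted p = 0.72, 95% interval -0.89 to 0.51). Reticular-like cells exceeded blood cells by 2.64 ± 0.41 (adjusted p = 0.00024). The thinned share of cells with an Fgf2 UMI was 3.90% and 3.36% for periosteal-like cells, against 0.972% and 0.950% for reticular-like cells.

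Among the receptors, Fgfr1 was the receptor gene whose level was highest in periosteal-like cells, and the only 1 of the 3 that was higher there than in reticular-like cells in the test. It stood at 186 and 224 CPM in periosteal-like cells, 159 and 202 CPM in preosteoblast-like cells and 127 and 116 CPM in reticular-like cells. Endothelial-like cells held 54.5 and 58.4 CPM and blood cells 8.85 and 13.8 CPM. The classes kept this order in both mice.

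Reticular-like cells had less Fgfr1 than periosteal-like cells (-0.82 ± 0.21, adjusted p = 0.022). The difference from preosteoblast-like cells, -0.58 ± 0.20, did not pass the test (adjusted p = 0.061), whereas with the mouse as a replicate block it was -0.56 ± 0.16 and passed (adjusted p = 0.027). Without cluster 13 it was -0.45 ± 0.20 (adjusted p = 0.13). Preosteoblast-like and periosteal-like cells differed by -0.24 ± 0.21 (adjusted p = 0.48). Endothelial-like cells had less Fgfr1 than reticular-like cells by 1.16 ± 0.23 (adjusted p = 0.0022) and more than blood cells by 1.82 ± 0.24 (adjusted p = 0.00013).

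Within the reticular-like class the cluster with the most Fgfr1 was not that with the most Fgf7. Cluster 0 held 142 and 137 CPM of Fgfr1, cluster 2 held 92.4 and 89.3 CPM and cluster 3 held 104 and 77.3 CPM. In both mice cluster 0 was the highest of the 3 for Fgfr1, while cluster 2 was the highest for Fgf7. Among preosteoblast-like cells, cluster 13 held 237 and 240 CPM of Fgfr1 and cluster 1 held 153 and 194 CPM. After thinning to 2000 UMIs, 35.1% and 31.9% of periosteal-like, 26.5% and 31.1% of preosteoblast-like, 23.3% and 21.3% of reticular-like, 10.0% and 9.42% of endothelial-like and 1.39% and 1.69% of blood cells had an Fgfr1 UMI. The Fgfr1 level of endothelial-like cells was 42.8% and 50.5% of the reticular-like level, where the reticular markers stood at 4.49% and 8.81%. In blood cells Fgfr1 stood at 6.95% and 11.9%, and the markers at 8.39% and 9.73%. Barcodes that hold mostly free RNA carried 101 and 130 CPM of Fgfr1, and the part of free RNA in these levels was not tested.

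Fgfr2, the receptor gene whose b form binds FGF7, was high in both reticular-like and preosteoblast-like cells. It stood at 174 and 160 CPM in reticular-like cells and at 214 and 189 CPM in preosteoblast-like cells. It was 54.8 and 43.9 CPM in periosteal-like cells, and endothelial-like cells held 14.2 and 23.1 CPM and blood cells 8.70 and 13.1 CPM. The levels of this high pair of classes lay above those of the other classes, with no overlap. The other classes were not alike. Periosteal-like cells exceeded endothelial-like cells by 1.48 ± 0.28 (adjusted p = 0.0024) and blood cells by 1.76 ± 0.24 (adjusted p = 0.00013). The unnamed cluster 10, which is in none of these classes, held 272 and 196 CPM of Fgfr2 from 50 and 78 UMIs (Poisson intervals 202 to 359 and 155 to 244).

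The difference of -0.27 ± 0.20 between reticular-like and preosteoblast-like cells did not pass the test for Fgfr2 (adjusted p = 0.36, 95% interval -0.71 to 0.16). Reticular-like cells exceeded periosteal-like cells by 1.73 ± 0.22 (adjusted p = 0.00069), and preosteoblast-like cells exceeded them by 2.01 ± 0.23 (adjusted p = 0.0003). Fgfr1 and Fgfr2 thus had opposite calls between reticular-like and periosteal-like cells, of which the Fgfr1 call no longer passed with the highest Scrublet scores left out (adjusted p = 0.051). Endothelial-like and blood cells differed by 0.28 ± 0.28 (adjusted p = 0.43). Thinned shares with an Fgfr2 UMI were 28.3% and 25.9% in reticular-like, 37.2% and 33.6% in preosteoblast-like, 11.7% and 7.98% in periosteal-like, 2.00% and 2.17% in endothelial-like and 1.94% and 2.39% in blood cells. The endothelial-like and blood shares lay close together. In endothelial-like cells the Fgfr2 level was 8.12% and 14.4% of the reticular-like level, where the 8 reticular markers stood at 4.49% and 8.81%. The part of free RNA in this Fgfr2 level was not tested.

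By cluster, Fgfr2 was 226 and 215 CPM in the preosteoblast-like cluster 1 but 49.8 and 49.1 CPM in the Bglap-led cluster 13. Fgfr3 followed, with 119 and 118 CPM in cluster 1 and 26.8 and 14.3 CPM in cluster 13, while Fgfr1 was higher in cluster 13. Fgf7, Fgfr2 and Fgfr3 were therefore low, and Fgfr1 high, in the same cluster of 14 and 61 cells. Among the reticular-like clusters Fgfr2 was 161 and 147 CPM in cluster 0, 190 and 175 CPM in cluster 2 and 209 and 186 CPM in cluster 3, an order that was the same in both mice.

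Among the 5 classes Fgfr3 was highest in preosteoblast-like cells. They held 113 and 101 CPM, and reticular-like cells 62.1 and 53.9 CPM. The level was 21.5 and 32.3 CPM in the endothelial-like and 18.8 and 29.6 CPM in the periosteal-like class. It was lowest in blood cells, at 3.88 and 7.48 CPM. Cluster 10 held 131 and 130.5 CPM of Fgfr3 from 24 and 52 UMIs, with Poisson intervals (83.7 to 194 and 97.5 to 171) that hold the preosteoblast-like values. Reticular-like cells were lower than preosteoblast-like cells by 0.89 on the log2 scale (-0.89 ± 0.24, adjusted p = 0.024) and higher than periosteal-like cells by 1.13 ± 0.29 (adjusted p = 0.024). Preosteoblast-like cells exceeded periosteal-like cells by 2.02 ± 0.29 (adjusted p = 0.0013). Periosteal-like and endothelial-like cells did not differ detectably (0.03 ± 0.35, adjusted p = 0.97), and endothelial-like cells exceeded blood cells by 1.75 ± 0.34 (adjusted p = 0.0015). With the highest Scrublet scores left out, 3 calls against reticular-like cells no longer passed: Fgfr3 against preosteoblast-like cells (adjusted p = 0.055), Fgfr3 against periosteal-like cells (adjusted p = 0.058) and Fgfr1 against periosteal-like cells (adjusted p = 0.051).

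The endothelial-like clusters had different receptor levels. Cluster 8, led by Podxl, Gja4 and Rbp7 and holding the arterial gene Sox17 among its top genes, had 27.0 and 39.2 CPM of Fgfr3, whereas cluster 15, led by the sinusoidal gene Stab2, had 4.34 and 10.6 CPM. For Fgfr2 the order was the opposite, with 6.22 and 15.5 CPM in cluster 8 and 39.0 and 46.8 CPM in cluster 15. In cluster 15 a single cell held 11 of the 18 Fgfr2 UMIs of Mouse #1 and 12 of the 22 of Mouse #2, and without it the level was 17.4 and 23.3 CPM, against 5.56 and 9.16 CPM in cluster 8 without its own top cell. Cluster 15 had 28 and 29 cells and also 19.5 and 46.8 CPM of Fgf7, against 0.691 and 11.5 CPM in cluster 8. These Fgf7 levels rest on 9 and 22 UMIs in cluster 15, of which 1 cell held 3 and 10, and on 1 and 17 UMIs in cluster 8. No test was run between these clusters, and the part of carried-over stromal RNA in these Fgf7 and Fgfr2 values was not tested.

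The levels of Fgf7, Fgfr1, Fgfr2 and Fgfr3 were low in each part of the blood cells, and Fgf2 had 0 to 6 UMIs per part and mouse. In myeloid-like cells Fgf7 was 8.56 and 16.4 CPM, Fgfr1 10.3 and 17.7 CPM and Fgfr2 7.71 and 13.2 CPM. In erythroid-like cells Fgf7 was 9.09 and 11.5 CPM, Fgfr1 4.69 and 11.5 CPM and Fgfr2 5.86 and 11.5 CPM. In lymphoid-like cells the Fgf7 level was 32.6 CPM in Mouse #1 and 9.19 CPM in Mouse #2, so lymphoid-like cells were the highest part for Fgf7 in Mouse #1 and the lowest in Mouse #2. These levels rest on 68 and 19 UMIs. Over all blood cells 1 cell held 33 of the 169 Fgf7 UMIs of Mouse #1, and 1 held 28 of the 178 of Mouse #2. Which part held the top cell of Mouse #1 was not determined. Fgfr2 was highest in lymphoid-like cells in both mice, at 17.3 and 16.4 CPM. The Fgfr2 UMIs came mostly from cluster 5, led by the B cell gene Ms4a1, with 29.5 and 29.9 CPM from 30 and 27 UMIs in cells with a median of 4329 UMIs. The part of carried-over stromal RNA in that value was not tested.

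**Figure D3:**
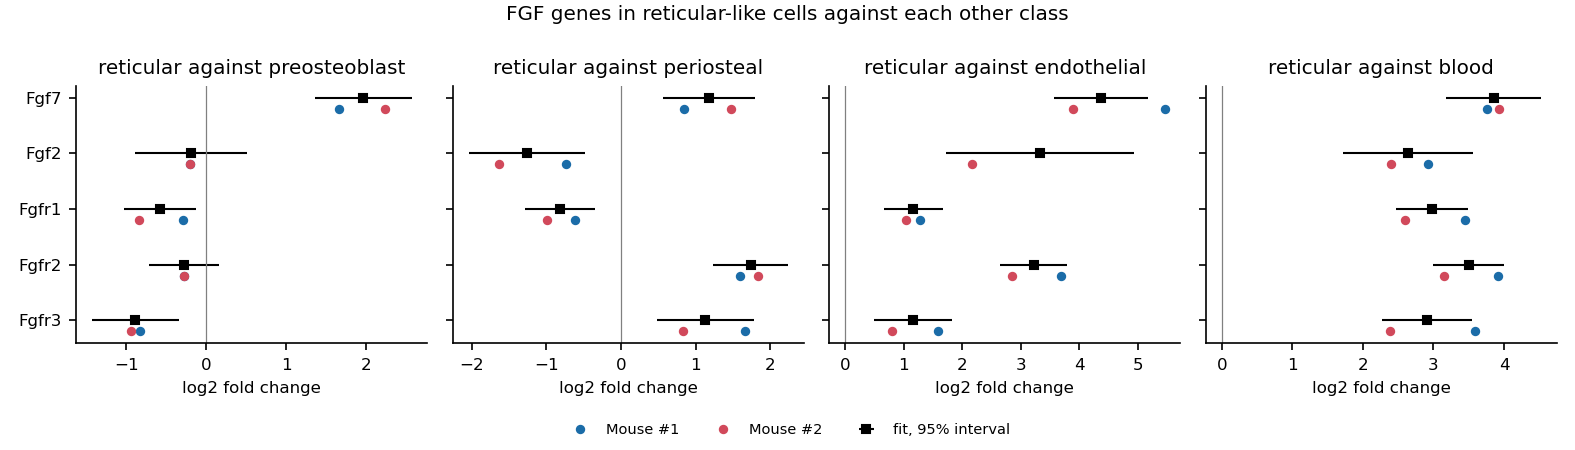
Log2 fold change of the 5 genes in reticular-like cells against each other class, with the edgeR fit and its 95% interval (squares) and the log2 ratio within each mouse (points; none for Fgf2 against endothelial-like cells in Mouse #1, which had no UMI there). Fgf7 lies above 0 in all 4 comparisons, while the other 4 genes lie below 0 against preosteoblast-like cells, where of these only the Fgfr3 difference passed the test.

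Counted over the 5 genes, 2 were called between reticular-like and preosteoblast-like cells, Fgf7 higher and Fgfr3 lower, where 25.1% of all genes tested were called (12% higher and 13.2% lower). All 5 were called between reticular-like and periosteal-like cells, 3 higher and 2 lower, where 18.8% of all genes were called (8.26% higher and 10.6% lower). With the highest Scrublet scores left out 3 of the 5 were called there. All 5 were higher in reticular-like cells than in endothelial-like cells and than in blood cells, where 43.9% and 71.7% of all genes were called, 20.9% and 33.2% being higher and 23% and 38.5% lower in reticular-like cells. Between preosteoblast-like and periosteal-like cells 2 of 5 were called against 18.9% of all genes. The remaining pairs gave 4 of 5 between periosteal-like and endothelial-like cells (38.9% of all genes), 2 of 5 between endothelial-like and blood cells (58.6%), and 5 of 5 for preosteoblast-like against endothelial-like cells (44% of all genes), preosteoblast-like against blood cells (69.2%) and periosteal-like against blood cells (66.2%). Of the 50 tests of a gene in a pair of classes, 40 were called. The pairs share classes and are not independent of each other.

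Ligand and receptor transcripts were found in the same reticular-like cells. With cells thinned to 4000 UMIs, 47.2% of the 614 reticular-like cells of Mouse #1 with an Fgf7 UMI also had an Fgfr2 UMI (95% Wilson interval 43.3% to 51.2%), and 46.2% of the 584 cells without one (42.2% to 50.3%). In Mouse #2 the shares were 46.0% of 1327 cells and 43.8% of 1037 cells. For Fgfr1 they were 40.4% and 38.5% in Mouse #1 and 34.8% and 34.7% in Mouse #2. For Fgfr3 they were 23.5% and 21.2% in Mouse #1 and 21.7% and 18.5% in Mouse #2. The share was thus slightly higher in reticular-like cells with Fgf7 for all 3 receptors in both mice. The intervals overlapped in each case, and no test was run between cells with and without Fgf7. In periosteal-like cells Fgfr2 was found in 27.3% of 22 cells with Fgf7 and 10.9% of 55 without in Mouse #1, with overlapping intervals (13.2% to 48.2% and 5.10% to 21.8%). In Mouse #2 the direction was the same, at 23.7% of 76 cells and 10.3% of 155 cells (15.5% to 34.4% and 6.45% to 16.1%). Fgfr1 went the other way in periosteal-like cells of both mice, with overlapping intervals. It was found in 9 of 22 cells with Fgf7 and 33 of 55 without in Mouse #1. In Mouse #2 it was found in 36 of 76 and 88 of 155 cells. For Fgfr3 the direction differed between the mice. The part of carried-over stromal RNA in these periosteal-like shares was not tested. In preosteoblast-like cells of Mouse #2 Fgfr3 was found in 47.4% of 152 cells with Fgf7 and 31.1% of 665 without, with intervals that did not overlap (39.6% to 55.3% and 27.7% to 34.7%), whereas in Mouse #1 the shares were 35.9% and 36.3%. Cells are not replicates, and the intervals cover counting error only.

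Reticular-like cells were also split by the tdTomato reporter, which marks cells in which Cxcl12-iCreER had been active. Positive cells were those above the 99th percentile of blood cells of the same mouse, 499 and 979 cells. That cut stood at 8.63 and 14.6 tdTomato UMIs per 10000, so cells counted as negative can hold some tdTomato. At the 95th percentile (2.83 and 3.60) 543 and 1265 cells were positive, and there too edgeR called none of the 5 genes. Fgf7 was 227 and 272 CPM in tdTomato-positive cells and 217 and 294 CPM in tdTomato-negative cells, so the direction differed between the mice. For Fgfr1 the positive cells held 131 and 117 CPM, and the negative cells 125 and 115 CPM. For Fgfr2 they held 165 and 152 CPM, and the negative cells 180 and 166 CPM, so positive cells were lower in 2 of 2 mice. None of the 5 genes was called, where 0% of the 12184 genes tested by edgeR were called. At an unadjusted p under 0.05 there were 459 genes, none of them among the 5, and DESeq2 called 2 genes. With the mouse as a replicate block, which compares positive and negative cells of the same animal, 543 genes were called, and again none of the 5. The fitted differences were -0.01 ± 0.17 for Fgf7 (95% interval -0.43 to 0.42) and -0.10 ± 0.09 for Fgfr2 (95% interval -0.31 to 0.11). With the block the Fgfr2 difference was -0.098 ± 0.057 (adjusted p = 0.42).

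The wider pathway was described with 61 genes in 6 lists, of which 41 were tested. Between reticular-like and preosteoblast-like cells 17 of the 41 were called, 9 higher and 8 lower in reticular-like cells. Against periosteal-like cells 13 were called (6 higher, 7 lower), against endothelial-like cells 31 (19 higher, 12 lower) and against blood cells 37 (34 higher, 3 lower). These are 41.5%, 31.7%, 75.6% and 90.2% of the 41, where 25.1%, 18.8%, 43.9% and 71.7% of all genes tested were called.

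Of the 18 ligands listed, 5 reached 1 CPM in both mice in some class, 2 reached 10 CPM and 5 had no UMI in these classes. The 5 were Fgf1, Fgf2, Fgf7, Fgf18 and Fgf23. In reticular-like against preosteoblast-like cells 2 of them were higher, 1 lower and 2 not called. The median log2 difference was 1.31, beside -0.03 over all genes. That median was the value of Fgf23, which was not called. Preosteoblast-like cells held no Fgf23 UMI in Mouse #1 and 3 in Mouse #2, all from 1 cell. The median is therefore no measure of a shift shared by the ligands. Fgf1 was higher in reticular-like cells (3.43 and 3.83 CPM) than in preosteoblast-like cells (1.30 and 1.28 CPM), by 1.48 ± 0.30 (adjusted p = 0.0063). Fgf18, a ligand with known roles in bone formation, went the other way, with 0.612 and 0.231 CPM in reticular-like cells and, in preosteoblast-like cells, 5.44 and 4.31 CPM (-3.62 ± 0.54, adjusted p = 0.0013).

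Fgf23, a hormone best known as a product of osteocytes that acts on the kidney, was found almost wholly in endothelial-like cells, at 56.6 and 40.5 CPM. Reticular-like cells held 0.245 and 0.363 CPM, from 4 and 11 UMIs, and the log2 difference was -7.14 ± 0.50 (adjusted p = 2.6e-06). The 108 and 79 UMIs of Fgf23 in endothelial-like cells all came from the Stab2-led cluster 15, where 13 of 28 and 10 of 29 cells had at least 1 UMI. The top cell held 25 and 23 of them. Cluster 8, with 122 and 109 cells, had none in either mouse. These are small numbers of cells, and no test was run between the clusters.

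Of the 5 receptors listed, 4 were tested. Fgfr4 had no UMI in the 4 stromal and endothelial classes. Fgfrl1, a receptor that lacks the kinase domain, was 98.2 and 81.9 CPM in reticular-like cells and 54.6 and 38.9 CPM in preosteoblast-like cells, higher in reticular-like cells by 0.95 ± 0.19 (adjusted p = 0.0061). No other receptor gene of the list was called in that direction in this comparison.

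Of 13 co-receptors and binding proteins, 10 were tested and 5 were called between reticular-like and preosteoblast-like cells, 1 higher and 4 lower. In that comparison 25.1% of all genes tested were called, 12% higher and 13.2% lower. The median log2 difference of the 10 was -0.05. The syndecan gene Sdc3 was 47.8 and 22.5 CPM in reticular-like cells and, in preosteoblast-like cells, 416 and 343 CPM (-3.45 ± 0.31, adjusted p = 9.4e-05). Sdc1 went the other way, with 273 and 342 CPM against 172 and 149 CPM (0.94 ± 0.30, adjusted p = 0.048). The glypican gene Gpc1 was 116 and 110 CPM against 345 and 312 CPM (-1.55 ± 0.24, adjusted p = 0.0016). These 3 genes were found in both classes and differed in level, in unlike directions. Gpc3 was 85.1 and 29.1 CPM in periosteal-like cells and 4.16 and 3.43 CPM in reticular-like cells (-3.90 ± 0.54, adjusted p = 0.00098). Hspg2, which encodes perlecan, was highest in endothelial-like cells at 399 and 508 CPM. The klotho genes Kl and Klb, co-receptors of the hormone-like ligands, stayed under 1 CPM in every class.

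Of 13 feedback regulators and targets, genes that FGF and other receptor tyrosine kinase signals are known to induce, 12 were tested. Between reticular-like and preosteoblast-like cells 5 were higher and 2 lower, with a median log2 difference of 0.67 beside -0.03 over all genes. The shares of all genes tested were 12% higher and 13.2% lower. The inhibitor gene Spry1 was 176 and 180 CPM in reticular-like cells and, in preosteoblast-like cells, 61.6 and 39.3 CPM (1.83 ± 0.22, adjusted p = 0.00041). Spry2 was 51.3 and 51.4 CPM against 21.6 and 16.3 CPM (1.45 ± 0.16, adjusted p = 0.00025). Spry4 was 56.6 and 42.9 CPM against 22.8 and 13.5 CPM (1.48 ± 0.23, adjusted p = 0.0016). Dusp4, a MAP kinase phosphatase gene, and Il17rd, a receptor-like inhibitor gene, were higher by 1.39 ± 0.31 (adjusted p = 0.01) and 0.89 ± 0.24 (adjusted p = 0.024). Not all members of the list moved this way. The transcription factor gene Etv4 was lower in reticular-like cells, at 0.306 and 0.198 CPM against 1.81 and 2.10 CPM (-2.99 ± 0.63, adjusted p = 0.0074), as was Spred3 (-0.90 ± 0.27, adjusted p = 0.034), and the phosphatase gene Dusp6 was not called (0.25 ± 0.22, adjusted p = 0.45).

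Against endothelial-like cells the same list gave 3 higher and 4 lower in reticular-like cells, where 20.9% of all genes tested were higher and 23% lower. Dusp6 was 15.5 and 16.6 CPM in reticular-like cells and, in endothelial-like cells, 177 and 157 CPM (-3.32 ± 0.22, adjusted p = 2e-06), whereas Spry1 was higher in reticular-like cells by 1.82 ± 0.24 (adjusted p = 0.00019). Many receptors other than those of FGF also act on these genes, so their levels are no measure of FGF signalling alone.

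**Figure D4:**
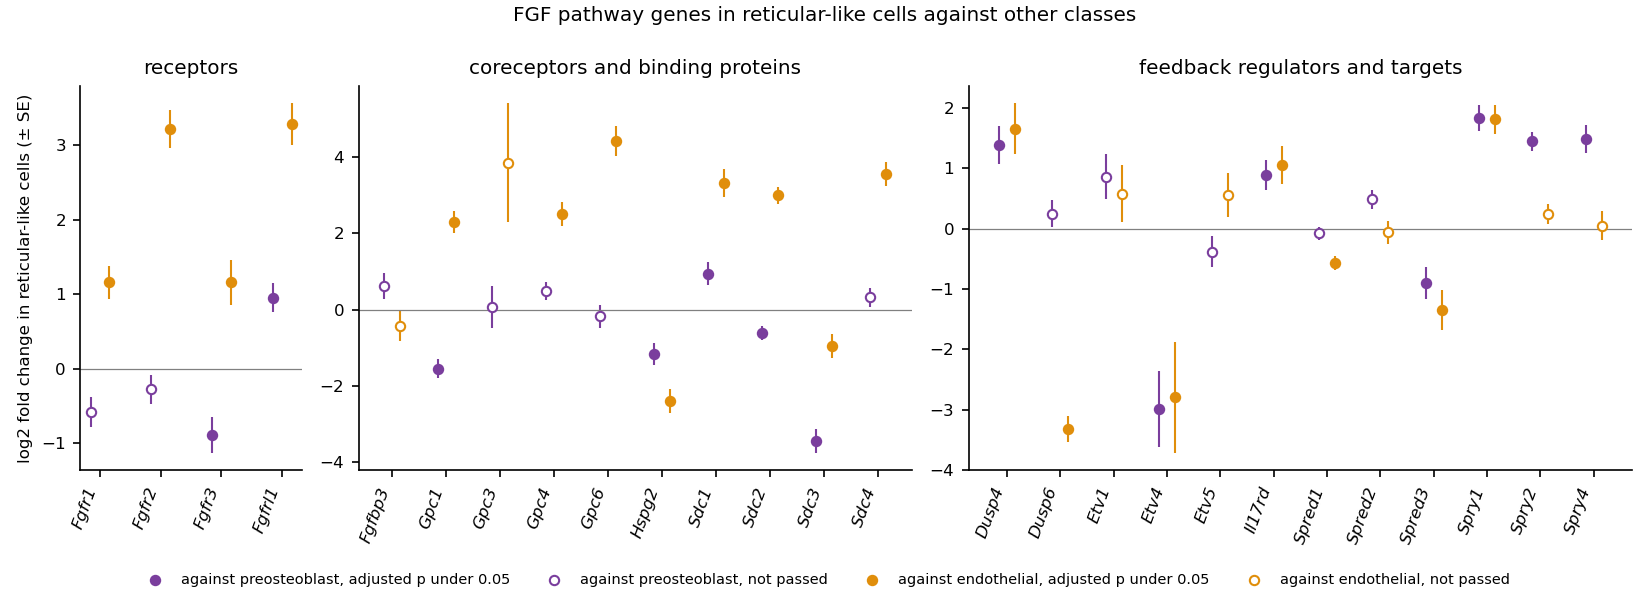
Log2 fold change ± SE of reticular-like against preosteoblast-like (purple) and endothelial-like cells (orange) for the tested receptors, co-receptors and binding proteins, and feedback regulators and targets. Filled points passed an adjusted p under 0.05 and open points did not. Spry1, Spry2 and Spry4 lie above 0 against preosteoblast-like cells (1.83, 1.45 and 1.48), and Sdc3 (-3.45) and Etv4 (-2.99) lie far below.

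None of the 8 adaptor genes, which link the receptors to the RAS and phospholipase C pathways, was called between reticular-like and preosteoblast-like cells by edgeR or between reticular-like and periosteal-like cells, and all 8 were tested. Of all genes tested 25.1% and 18.8% were called in these comparisons. In edgeR none of the 8 reached an unadjusted p under 0.05 in either comparison. DESeq2 called none of them, with 1 at an unadjusted p under 0.05 against periosteal-like cells. Against endothelial-like cells 2 were higher and 4 lower in reticular-like cells, beside 20.9% and 23% of all genes tested. Plcg1, the phospholipase C gene, was 23.3 and 20.3 CPM in reticular-like cells and, in endothelial-like cells, 76.0 and 77.9 CPM (-1.77 ± 0.13, adjusted p = 2.9e-06), and Sos1, a RAS exchange factor gene, differed by -1.86 ± 0.12 (adjusted p = 1.7e-06). Frs2, the docking protein gene of the FGF receptors, was higher in reticular-like cells by 1.63 ± 0.23 (adjusted p = 0.00024). Of the 4 genes of intracellular FGF homologues, which are not secreted, Fgf11 and Fgf13 were tested. Fgf13 was 6.80 and 6.77 CPM in reticular-like cells and, in preosteoblast-like cells, 19.2 and 7.46 CPM and was not called (-0.92 ± 0.36, adjusted p = 0.089).

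Genes with the pattern most like each of the 5 were named by Pearson's r over 30 sums, 15 clusters in 2 mice, among 9071 genes. Only clusters with at least 20 cells in each mouse were used. The unnamed clusters 10 and 11 were therefore included. Cluster 13, with 14 cells in Mouse #1, was left out, so its low Fgf7, Fgfr2 and Fgfr3 and high Fgfr1 do not enter these values. For Fgf7 they were Fst (r = 0.958), Dpep1 (0.954), Smoc1 (0.952), Mme (0.951) and Il7 (0.951). For Fgfr2 they were Tpm1 (0.974), Tle2 (0.971), Cdh2 (0.970), Csf1 (0.968) and Plagl1 (0.967), and for Fgfr1 Ltbp3 (0.972), Rhbdf1 (0.969), Pmepa1 (0.968), Rbfox2 (0.967) and Npr2 (0.967). Fgfr3 was nearest to Syde1 (0.934), Cpt1c (0.933) and Clip2 (0.933), and Fgf2 to Tmem45a (0.898), Sod3 (0.877) and Qpct (0.863). Among themselves the 3 receptors were closest for Fgfr2 and Fgfr3 (0.902), and Fgf7 was closer to Fgfr2 (0.875) than to Fgfr1 (0.717). The sums share libraries and depth, and these correlations mostly separate stromal from blood clusters.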

How the data were processed

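The tables the authors deposited hold raw UMI counts per gene and barcode, unfiltered, made with Cell Ranger 3.0.0 per the file headers from 10x 3′ libraries. The study's methods name the mm10 genome with added reporter sequences, and the tables hold 8 such features. The 2 libraries are 2 mice of 1 group per the labels.

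Barcodes with 1000 genes or more and up to 15% mitochondrial UMIs were kept (2750 and 4582 cells). The counts were scaled to 10000 per cell and clustered in scanpy 1.11.5 (2000 variable genes, 30 components, 15 neighbors, Leiden resolution 0.5), and clusters were named from marker lists. Raw counts were summed per mouse and class and tested with edgeR 4.0.16 (quasi-likelihood, TMM, filterByExpr, Benjamini-Hochberg) in R 4.3.3. The classes were drawn on the same cells, and the 2 mice are the only replicates. Scrublet marked 1 and 3 doublets by its automatic threshold, too few to be used, so removing the 60 and 168 highest scores was run as an alternative, beside DESeq2 1.42.0, other scaling, filters, cell limits and resolution. Shares were computed after thinning to 2000 UMIs, and intervals cover counting error at 95%. The edgeR fit was tested on simulated counts with a fixed spread and no effect of the mouse. The other steps were not tested in this way. Sums of the same mouse pair the classes, since they come from the same animal. Deviations of same-mouse sums correlated at 0.071 to 0.256. The genes and lists were chosen with earlier results of these data known. The text names the 5 genes, members of the 6 FGF lists, and up to 5 genes of most similar pattern for each.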

Additional observations from a re-analysis of the deposited data

How the results depend on the processing

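Counts of FGF list genes called stayed within 1.5 times the reported value under every alternative run for the class comparisons, at 15 to 21 against preosteoblast-like cells, 11 to 16 against periosteal-like cells, 30 to 32 against endothelial-like cells and 37 to 38 against blood cells. The alternative without a filter and DESeq2 tested 54 genes of the lists and the others 41. Over settings with 41 the highest values were 20 and 14 against preosteoblast-like and periosteal-like cells. The tdTomato comparison gave 0 calls in the lists, but 4 with the mouse as a replicate block (Sdc2, Sdc3, Sdc4 and Fgf13, none of the 5 genes), where the whole table went from 0 to 543 calls. Apart from that count and the Fgfr1 value given above, the block changed no call of the 5 genes. Of 40 calls for the 5 genes, 37 passed under all 9 alternatives, and the other 3 were lost when the highest Scrublet scores were removed. Of the 10 uncalled tests, 5 passed under some alternative. Besides Fgfr1 these were Fgf7 (no filter, adjusted p = 0.0085, and Scrublet removal, 0.041) and Fgf2 (no filter, 0.038, resolution 1.0, 0.045, and DESeq2, 0.044) between preosteoblast-like and periosteal-like cells, and between endothelial-like and blood cells Fgf7 (Scrublet removal, 0.037) and Fgfr2 (scaling by total UMIs, 0.034). Fgfr1 against preosteoblast-like cells also passed without a filter (0.021).

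Small differences changed sign in 2 comparisons of classes and in the tdTomato comparison. Fgfr3 between periosteal-like and endothelial-like cells was -0.076 with total UMIs, -0.014 with DESeq2, and -0.069 and -0.034 within the mice. Fgf7 between tdTomato-positive and tdTomato-negative cells was 0.040 with the 95th percentile, and -0.088 to 0.094 within the mice. Within single mice, Fgf2 in the same comparison ranged from -0.33 to 0.46, Fgf7 between endothelial-like and blood cells from -1.70 to 0.044, and Fgf2 there was 0.23 in Mouse #2. Leaving out a mouse moved the called Fgf7 differences from endothelial-like cells. In the fit with both mice they were 4.37, 2.41 and 3.19 on the log2 scale for reticular-like, preosteoblast-like and periosteal-like cells. Without Mouse #2 these were 5.45 for reticular-like, 3.79 for preosteoblast-like and 4.61 for periosteal-like cells, and without Mouse #1 3.89, 1.65 and 2.42. Fgf2 against endothelial-like cells was 2.16, 2.36 and 3.80 without Mouse #1, and rests on 2 UMIs. Fgfr3 against blood cells was 3.59 and 4.43 for reticular-like and preosteoblast-like cells without Mouse #2, and Fgfr2 between periosteal-like and endothelial-like cells 2.08. Scaling by total UMIs moved the median of all genes against blood cells from -0.09 to 0.34 for reticular-like cells. Of 50 level checks 42 moved by less than the SD between mice. Of 50 share checks 48 moved by more, as no thinning or thinning to 4000 UMIs raises a share. The cause of the other changes was not tested. Endothelial-like and periosteal-like classes hold few cells.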
